A study of Mus musculus with 12 samples.

Results

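Potassium, calcium and sodium channel genes were taken from the GENCODE vM21 annotation of the mouse genome (GRCm38) by their symbols, as protein-coding genes named Kcn with a subfamily letter and a number, Cacna, Cacnb or Cacng, or Scn with a number and a or b. The rule found 133 genes of 21755 protein-coding genes on chromosomes 1 to 19 and X: 93 Kcn, 26 Cacn and 14 Scn genes. The rule uses names only, but it was chosen with earlier results of these data known. CUT&RUN, in which an antibody-tethered nuclease cuts and releases the DNA it is bound to, was run on Min6 cells, an insulinoma line of the mouse that the labels class as pancreatic β cells and that every group shares. Cells received the JNK inhibitor SP600125 (JNKi, 20 µM) or its solvent DMSO for 48 hours and were profiled for the transcription factor cJun, for the promoter mark H3K4me3 or with IgG. The 6 groups held 2 biological replicates each, 12 samples in all. The 4 lists analysed here, 1 for each treatment with cJun or H3K4me3, each combine both replicates into 1 set of peaks found in both.

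β cells couple glucose to insulin secretion through their membrane potential. ATP made from glucose closes the K-ATP channel, a complex of the pore Kir6.2 (Kcnj11) and the sulfonylurea receptor SUR1 (Abcc8), the membrane depolarises, voltage-gated calcium channels open, and calcium drives exocytosis, while voltage-gated and calcium-activated potassium channels repolarise the cell. H3K4me3 marks the promoters of genes that are active or poised, and cJun is a subunit of AP-1, which the JNK kinases phosphorylate.

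A gene was called marked where an H3K4me3 peak lay within 3 kb of any of its transcription start sites (TSS), and its peak was the one with the highest −log10 p. The rank percentile of a peak is its place in its own list by −log10 p, with 100 the strongest. That value is the lower of the 2 replicates' values, and replicate values are given below as first and second, in the order of the file. IDR, the irreproducible discovery rate, is lower for peaks on which the replicates agree. Each treatment has 1 merged list with the values of 2 replicates per peak. No test was made, and treatments are compared by description only, saying where the replicate values of DMSO and JNKi overlap. A −log10 p also grows with sequencing depth, so values of DMSO and JNKi stand side by side, and ranks are within a list. Intervals are 95% Wilson intervals and cover counting error only. The depth behind a peak is unknown, as read totals were not analysed here.

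The lists hold 19372 H3K4me3 peaks in DMSO and 19032 in JNKi, and 4960 and 1632 cJun peaks. Of 14 β cell marker genes 13 were marked in both lists, Ins1 being the exception. None of 4 acinar, 3 ductal or 3 delta and PP cell markers was marked, whereas 2 of 3 alpha cell markers (Gcg and Irx2), 2 of 3 neuronal markers, Cd68 and Col1a1 were. The part of other cells in the values below was not tested.

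cJun binds DNA at AP-1 sites, so windows of cJun peaks near channel genes that held such a site are shown first, although few did. AP-1 sites were searched as TGAGTCA and TGACTCA, which are each other's reverse complement, within 100 bp of a peak's summit. Of 69 distinct DMSO cJun peaks within 50 kb of a channel gene, 4 held one (5.80%, interval 2.28 to 14.0), against 496 of all 4945 DMSO cJun peaks on these chromosomes. Among 16 JNKi peaks 1 did (6.25%, interval 1.11 to 28.3), against 12.1% of 1624. Windows from 3 of the DMSO peaks and from the JNKi peak follow on the plus strand of GRCm38 with the site in capitals, in the order of their rank within DMSO and then JNKi.
Kcnip4 intron, chr5:48572217-48572417: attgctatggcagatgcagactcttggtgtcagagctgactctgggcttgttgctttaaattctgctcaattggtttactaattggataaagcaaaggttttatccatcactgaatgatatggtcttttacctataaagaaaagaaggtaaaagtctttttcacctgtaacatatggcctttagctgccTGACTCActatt
Kcnj6 intron, chr16:94932396-94932596: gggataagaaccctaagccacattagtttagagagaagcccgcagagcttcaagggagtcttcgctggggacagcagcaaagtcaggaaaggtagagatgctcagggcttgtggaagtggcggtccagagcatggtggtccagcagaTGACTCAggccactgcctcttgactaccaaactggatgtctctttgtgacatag
Kcnv2 downstream, chr19:27364657-27364857: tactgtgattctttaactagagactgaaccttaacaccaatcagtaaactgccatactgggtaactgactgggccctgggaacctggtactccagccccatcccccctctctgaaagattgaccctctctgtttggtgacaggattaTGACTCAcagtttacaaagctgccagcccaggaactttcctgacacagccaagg
Kcnj11 upstream, chr7:46128216-46128416: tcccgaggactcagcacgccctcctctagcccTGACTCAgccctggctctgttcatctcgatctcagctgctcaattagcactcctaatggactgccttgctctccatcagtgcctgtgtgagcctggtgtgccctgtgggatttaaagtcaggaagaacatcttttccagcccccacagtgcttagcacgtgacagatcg
All of them carry the same spelling, TGACTCA, on the plus strand. The site centre lies 92 bp past the summit in Kcnip4, 50 bp past it in both Kcnj6 and Kcnv2, and at -65 bp for Kcnj11. Counted over whole peaks instead, 17 of the 69 DMSO peaks (24.6%, interval 16 to 36.0) held an AP-1 site against 32.7% of the list. A site within 50 bp of the summit was found in 1 of the 69, against 5.58% of the list.

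The cAMP response element TGACGTCA, a palindrome which dimers of cJun with ATF family members can bind, was found within 100 bp of the summit in 2 of the 69 DMSO peaks (2.90%, interval 0.799 to 9.97) and 1 of the 16 JNKi peaks. Over the whole lists the shares were 0.809% in DMSO and 1.79% in JNKi. Windows around these sites follow, shortened where they overlap an exon of 5730480H06Rik (Kcnip4) or Nos3 (Kcnh2).
Kcnip4 downstream, chr5:48372332-48372361: cggcgcgcgtaTGACGTCActgtgcggcgc
Kcnma1 intron, chr14:23966677-23966737: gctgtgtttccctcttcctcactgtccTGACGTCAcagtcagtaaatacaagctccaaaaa
Kcnh2 upstream, chr5:24383692-24383721: gatgaagccggTGACGTCAtcggcgtgctg
These matches are descriptions of the reference letters at the peaks. The last sequence shown is the promoter of Kcnd1, the 1 channel gene with a cJun peak at its own promoter in both lists. The stretch below is the 300 bases directly upstream of the first exon, and both cJun peaks cover it.
Kcnd1 promoter, chrX:7821989-7822288: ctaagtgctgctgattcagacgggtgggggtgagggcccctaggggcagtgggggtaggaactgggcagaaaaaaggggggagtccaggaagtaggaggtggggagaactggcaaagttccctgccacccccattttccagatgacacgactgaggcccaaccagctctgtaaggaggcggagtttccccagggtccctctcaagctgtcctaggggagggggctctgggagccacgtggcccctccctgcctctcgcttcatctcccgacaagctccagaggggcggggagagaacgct
Neither an AP-1 site nor the cAMP response element occurs in these 300 bases.

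H3K4me3 was asked for first, as a readout of which channel promoters are marked in these cells. In DMSO 82 of the 133 channel genes were marked (61.7%, interval 53.2 to 69.5), against 60.6% of all protein-coding genes. In JNKi 78 were (58.6%, interval 50.1 to 66.7), against 60.0%. Both lists marked 77 genes (57.9%, against 59.7%) and neither marked 50 (37.6%, against 39.0%). Whether a channel gene carried the mark at all was near the level of any gene. With peaks of IDR at most 0.05 the count was 64 in each treatment (48.1%, against 54.0% of all genes).

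Families differed widely in these counts, beside 60.6% of all genes marked in DMSO and 60.0% in JNKi. Every one of the 8 Kcnh genes, which encode the EAG, ERG and ELK potassium channels, and of the 4 Cacnb genes, which encode cytosolic calcium channel β subunits, was marked in both treatments. Calcium- and sodium-activated potassium channels (Kcnma, Kcnn, Kcnt, Kcnu) followed with 7 of 8, Kcnq channels with 4 of 5 and the pore-forming calcium channel subunits Cacna1 with 7 of 10. Of 27 pore-forming and modifier Kv genes (Kcna to Kcnd, Kcnf, Kcng, Kcns and Kcnv) 16 were marked in DMSO and 14 in JNKi. The inward rectifiers (Kcnj) had 6 of 15 in DMSO and 5 in JNKi, and the 2-pore-domain potassium channels (Kcnk) 7 of 14 in each. The sodium channel α and β subunits had 5 of 10 and 2 of 4. Auxiliary potassium channel subunits (Kcnab, Kcne, Kcnip, Kcnmb) stood at 9 of 16, Cacna2d at 2 of 4, and Cacng at 5 of 8 in DMSO and 4 in JNKi. Families hold between 4 and 27 genes, so these shares are coarse.

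**Figure D1:**
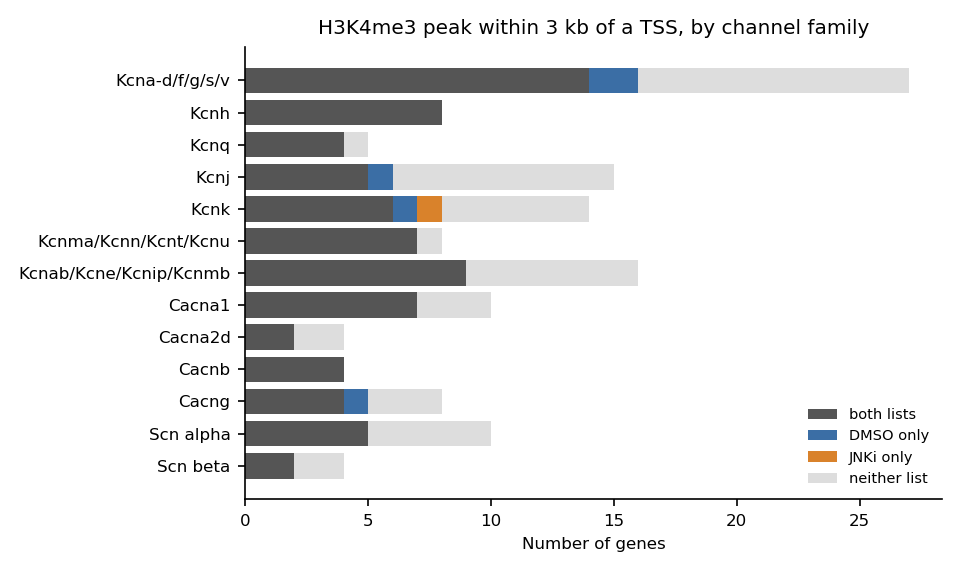
Channel genes by family (vertical axis) and their number (horizontal axis), split by whether an H3K4me3 peak lay within 3 kb of a TSS in both lists, DMSO only, JNKi only or neither. All 8 Kcnh and all 4 Cacnb genes are marked in both lists, whereas 9 of 15 Kcnj genes are marked in neither.

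Of the β cell list, 40 channel genes with a textbook place in β cell electrical activity, 33 were marked in DMSO (82.5%, against 60.6% of all genes). In JNKi 32 were (against 60.0%), with 31 in both (against 59.7%). The Cacna1e, Kcna5, Kcna6, Kcnk2, Kcnn4 and Kcnq1 promoters were without a peak in either list, and Kcnk16 had one in JNKi alone. Of 12 heart and skeletal muscle channel genes 4 were marked in DMSO (33.3%) and 3 in JNKi. Of 24 neuronal and sensory genes 15 were marked in DMSO (62.5%), near the share of all genes, and 14 in JNKi. These lists are small and were chosen with earlier results of these data known. Among 30 other channel and coupling genes outside the naming rule 22 were marked in DMSO and 21 in JNKi. Abcc8, the partner of Kcnj11, ranked at percentile 99.4 in DMSO and 95.6 in JNKi, and Abcc9, its counterpart in muscle K-ATP channels, was unmarked.

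Channel genes with gaps of at most 200 kb between them formed 16 groups of neighbours, of which 8 were alike in both lists (6 wholly unmarked and 2 wholly marked) and 8 were not. On chromosome 6 the 3 genes Kcna5, Kcna1 and Kcna6, which lie within 208 kb, were all unmarked in both lists. So were the pairs Scn2b and Scn4b, Kcne2 and Kcne1, and Kcnj5 and Kcnj1. On chromosome 2 Scn3a, Scn2a, Scn1a and Scn9a were marked, and Scn7a next to them was not. Among the groups that held both kinds were Kcnj16 and Kcnj2, Cacna1c and Cacna2d4, and Cacng1, Cacng4 and Cacng5, each with 1 marked gene.

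Marked genes held more CpG at their 5′-most TSS than unmarked ones. The observed to expected CpG ratio within 500 bp of the 5′-most TSS had a median of 0.643 in channel genes marked in DMSO and 0.286 in unmarked ones, against 0.731 and 0.195 over all genes. Among channel genes with a ratio of at least 0.6, 46 of 58 were marked (79.3%, interval 67.2 to 87.7), against 92.6% of all such genes. Below 0.6, 36 of 75 were (48.0%, interval 37.1 to 59.1), against 31.2%. A gene could be marked at any TSS, so the ratio is not always that of the marked promoter. At Scn1a the ratio of 0.389 belongs to the TSS at 66440837, whereas its DMSO peak spanned chr2:66407970-66410420. The 12 CpG-rich but unmarked genes included Cacna1i, Cacna2d3, Kcna1, Kcng1, Kcnj12, Kcnk2, Kcnk5, Kcnk15, Kcnq1, Kcns2 and Scn4b.

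Marked channel promoters ranked in the middle of the lists, where the marked genes as a whole ranked higher. The median rank percentile of the promoter peak was 45.9 over the 82 marked channel genes in DMSO and 43.4 over 78 in JNKi, against 70.3 and 70.2 over all marked genes. Above percentile 80 lay 9 of 82 in DMSO (11%, interval 5.88 to 19.6), against 34.7% of all marked genes, and 7 of 78 in JNKi (8.97%, interval 4.42 to 17.4), against 34.5%. The most filled part of the range was percentile 40 to 60, with 31 genes in DMSO (37.8%) and 28 in JNKi (35.9%), against 19.9% and 20.3%. Widths differed less, with medians of 2206 bp in DMSO and 2274 bp in JNKi against 2576 bp and 2643 bp. The median gene length was 42.7 kb, against 17.4 kb, and the share marked in DMSO was 39.5% of channel genes under 20 kb (against 49.4% of all such genes), 66.0% from 20 to 100 kb (against 72.8%) and 79.1% over 100 kb (against 76.3%).

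**Figure D2:**
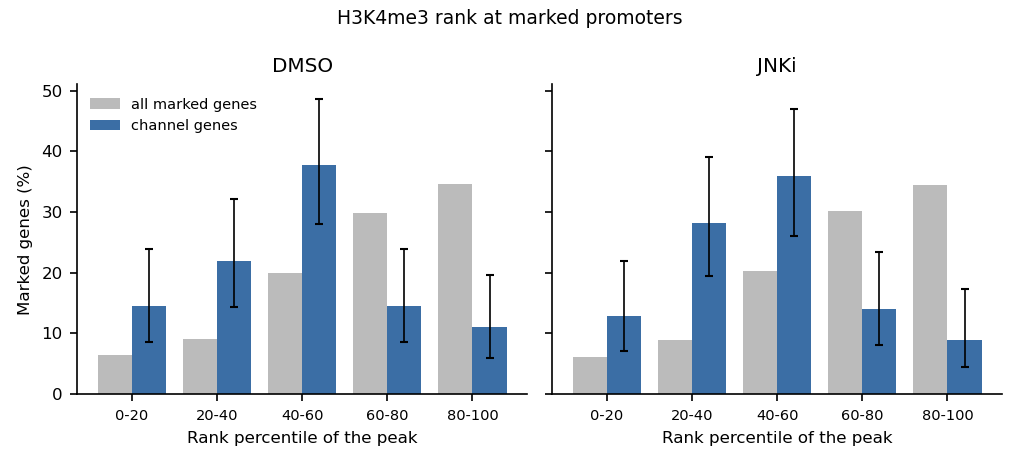
Share of marked genes (vertical axis, percent) by rank percentile of their H3K4me3 promoter peak (horizontal axis, 100 the strongest) in DMSO and JNKi, for all marked genes (grey) and channel genes (blue, with 95% Wilson intervals). Channel genes are most frequent at percentile 40 to 60, where all marked genes are most frequent at 80 to 100.

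The strongest channel promoters in DMSO were those of Cacnb2, Kcnab3 and Cacna1c. Cacnb2, whose product helps to carry the calcium channel pore to the membrane, had a −log10 p of 551 and 465 in DMSO and 563 and 628 in JNKi. Its peak spanned chr2:14602503-14608257 in DMSO and was the widest of all channel genes in both treatments, at 5755 bp and 6879 bp. Cacna1c, which encodes the L-type pore Cav1.2, gave 549 and 419 in DMSO and 628 and 579 in JNKi (percentiles 95.1 and 98.7). Its peak, 4286 bp in DMSO and 4480 bp in JNKi, covered 4 of its 10 TSS in both. Kcnab3, a Kv β subunit, reached percentile 96.5 in DMSO, but its peak of 5738 bp also covered TSS of Cntrob and Trappc1, so the mark cannot be assigned to it alone.

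The pore of the K-ATP channel, Kcnj11 (chr7:46093953-46100764, minus strand), stood out by width rather than rank. Its replicates gave 263 and 196 in DMSO and 260 and 227 in JNKi (percentiles 66.9 and 66.3), so that the replicate ranges of the treatments overlapped. The peak was 5647 bp wide in DMSO and 5096 bp in JNKi, the third widest of the channel genes in DMSO, on a gene with 1 TSS. The widest 10 in DMSO also held Kcnk9 (TASK-3, a leak channel, 4788 bp), Cacnb3 (4654 bp), Kcnab2 (4261 bp, covering the TSS of Nphp4 too), Kcnf1 (a silent Kv subunit, 4198 bp) and Cacna1h (the T-type pore Cav3.2, 4175 bp). Of the marked channel genes 12 of 82 had a DMSO peak of at least 4 kb (14.6%, interval 8.57 to 23.9), against 13.6% of all marked genes. At the other end 11 had a peak under 1 kb (13.4%, interval 7.66 to 22.4), against 6.73%.

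Among the other calcium channel pores on the β cell list, Cacna1d (L-type Cav1.3) lay at percentile 66.7 in DMSO and 65.4 in JNKi, Cacna1a (P/Q-type) at 58.7 and 52.2, Cacna1b (N-type) at 58.7 and 46.6, Cacna1g (T-type) at 37.7 and 36.7 and Cacna1h at 77.9 and 59.2. Cacna1e, the R-type pore, had no promoter peak. Of the subunits that accompany them, Cacna2d1 lay at 73.3 and 65.0, Cacnb4 at 53.0 and 51.4, Cacnb1 at 43.0 and 39.1 and Cacng4 at 45.3 and 41.9. Cacna2d2 was near the bottom, at 15.4 and 2.41, with replicate values of 8.70 and 13.3 in DMSO and 8.30 and 4.26 in JNKi. Each of these genes apart from Cacna2d2 and Cacna1e had a peak of more than 1 kb in both lists.

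The potassium channels that repolarise the β cell were spread over the range. Kcnma1, the large-conductance BK pore, had 373 and 279 in DMSO and 427 and 416 in JNKi (percentiles 80.4 and 90.9), with JNKi higher in both replicates. The small-conductance genes Kcnn1, Kcnn2 and Kcnn3 lay at 49.1, 64.0 and 43.1 in DMSO and at 50.5, 66.4 and 36.6 in JNKi, whereas Kcnn4, the intermediate-conductance gene, was unmarked. Kcnh6, an ERG channel, reached 91.2 and 86.1 and Kcnh2, its relative, 61.1 and 66.7. Kcnj6 (GIRK2, a G protein-gated inward rectifier) had 364 and 339 in DMSO and 432 and 344 in JNKi (percentiles 88.4 and 83.3), and Kcnk1, a weak inward rectifier of the leak family, 72.0 and 71.6.

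Of the sodium channel genes on the list, Scn8a (Nav1.6) was the strongest, with 461 and 330 in DMSO and 402 and 448 in JNKi (percentiles 87.4 and 89.7). Scn9a (Nav1.7) lay at 20.1 and 22.2, with replicate values of 11.4 and 55.1 in DMSO and 59.3 and 13.5 in JNKi, and the replicate ranges overlapped. Scn3a (Nav1.3) had 11.3 and 12.8 in DMSO and 32.4 and 28.7 in JNKi, and the groups did not overlap. Its percentile went from 19.9 to 32.8, the largest gain of any channel gene, and its width from 768 bp to 1147 bp. The auxiliary gene Scn3b lay at 50.4 in DMSO and at 53.8 in JNKi.

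Rank followed the weaker replicate, which matters for a few channel genes. Cacng2 (stargazin) showed a wide gap between replicates, with 78.6 and 9.12 in DMSO and 74.9 and 7.14 in JNKi, Kcnf1 had one in DMSO (8.41 and 64.5), and Cacnb3 (323 and 39.6) and Kcnmb2, a BK β subunit (194 and 16.2), had one in JNKi. A gap of at least 5-fold in −log10 p between replicate peaks whose widths were within 1.3-fold was found at 3 of 82 marked channel genes in DMSO (3.66%), against 3.55% of all marked genes, and at 4 of 78 in JNKi (5.13%), against 2.92%. Ranked by the higher replicate value instead, the channel median was 42.8 in DMSO and 42.7 in JNKi, against 70.2 and 70.1, a similar distance below.

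**Figure D3:**
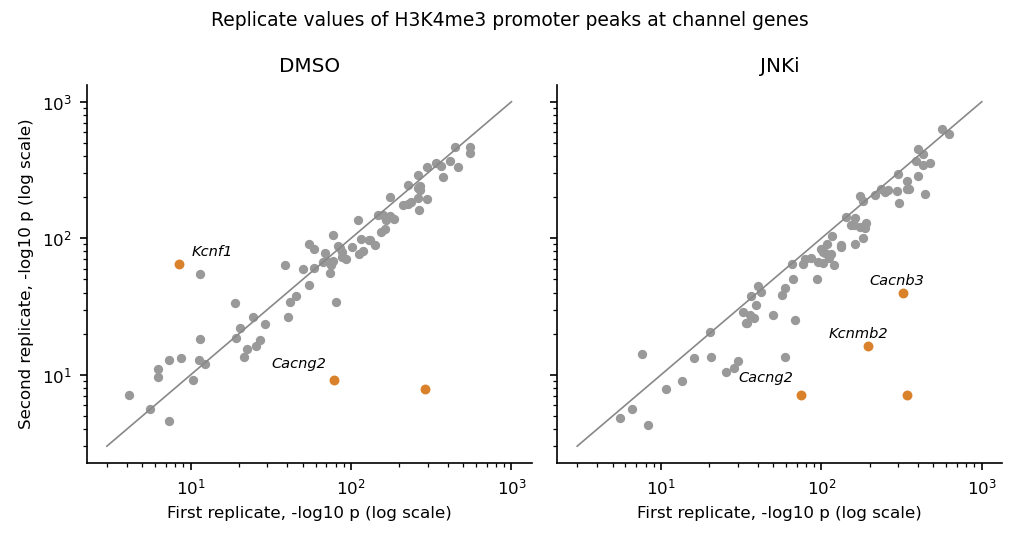
First replicate −log10 p (horizontal axis, log scale) against second replicate −log10 p (vertical axis, log scale) of the H3K4me3 promoter peak of each marked channel gene in DMSO and JNKi, with the line of equality. Orange points have replicate values at least 5-fold apart, among them Cacng2 (78.6 and 9.12 in DMSO) in both panels, and the genes described in the text are named.

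The second comparison was between treatments at these promoters. The mark was found in DMSO alone at 5 channel genes (3.76%, interval 1.62 to 8.50), against 0.961% of all genes, and in JNKi alone at 1 (0.752%, interval 0.133 to 4.14), against 0.382%. The 5 were Cacng6, Kcna3, Kcnd3, Kcnj10 and Kcnk3, and they were also the 5 narrowest channel promoter peaks in DMSO. Kcnd3 (Kv4.3, an A-type channel) had 5.55 and 5.60 over 280 bp, Kcnk3 (TASK-1, a leak channel) 6.29 and 9.63 over 568 bp, and Kcna3 (Kv1.3) 6.29 and 11.1 over 441 bp. Kcnj10 (Kir4.1, the main inward rectifier of glia) had 7.35 and 4.58 over 479 bp. Cacng6, a muscle calcium channel subunit, had 4.15 and 7.13 over 230 bp, in a peak 1938 bp from its nearest TSS. All lay at or below percentile 8.72, close to the −log10 p of 3.01 at which the list ends. Kcnk16 (TALK-1, a 2-pore-domain potassium channel enriched in the pancreas) was the gene found in JNKi alone, with 5.57 and 4.86 over 580 bp (chr14:20268679-20269258) at percentile 4.01. With peaks of IDR at most 0.05 none of these 6 genes was called. In each treatment 5 other genes were found alone (3.76%), against 2.73% of all genes for DMSO and 2.78% for JNKi. The distance from all genes was smaller there. That filter also dropped strong peaks, as 19.5% of the top 5% of H3K4me3 peaks in DMSO and 26.5% in JNKi exceeded it. Cacnb2 was among the 5 in DMSO alone, because its JNKi peak, with 563 and 628, had an IDR of 0.282.

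Widths changed little. Of the 77 channel genes marked in both lists, 39 were wider in JNKi (50.6%, against 54.7% of all genes marked in both), and the median ratio of JNKi to DMSO width was 1.00, against 1.01. None was at least 1.5-fold wider in JNKi (0 of 77, interval 0 to 4.75, against 1.41%). Scn3a, at 1.49, was just outside, and Cacna2d2, at 0.68, was just outside on the other side. At 3 genes the width was at least 1.5-fold lower in JNKi (3.90%, interval 1.33 to 10.8, against 1.38%). Kcnj4 (Kir2.3) went from 1434 bp to 951 bp with replicate values of 20.3 and 22.0 in DMSO and 16 and 13.3 in JNKi. Kcna7 went from 2130 bp to 326 bp because its single DMSO peak was called as 2 peaks in JNKi, of 326 bp and 1327 bp. At Scn2a (Nav1.2) the 2532 bp peak in DMSO was still present in JNKi, at 2626 bp, but a 986 bp peak at another of its TSS ranked above it there. That peak stood at percentile 31.5 in JNKi, with 38.2 and 26.1, and its DMSO counterpart of 968 bp at 15.5. Kcna7 and Scn2a were thus changes in which peak was measured.

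**Figure D4:**
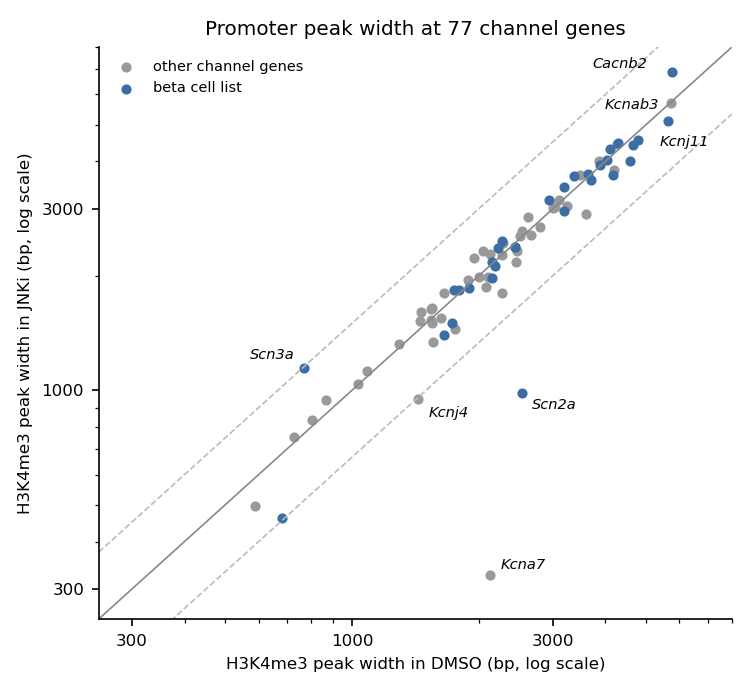
H3K4me3 promoter peak width in DMSO (horizontal axis, bp, log scale) and JNKi (vertical axis, bp, log scale) at the 77 channel genes marked in both lists, with genes of the β cell list in blue. The solid line marks equal width and the dashed lines a 1.5-fold difference, below which lie Kcnj4, Kcna7 and Scn2a.

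By rank, 26 of the 77 stood higher in JNKi (33.8%, interval 24.2 to 44.9), against 43.0% of all genes marked in both. The median change was -1.61 percentile points, against -0.881. Cacnb3 (from 74.5 to 36.4), Kcnab3 (96.5 to 63.7), Kcnmb2 (57.4 to 24.9) and Cacna1h (77.9 to 59.2) were more than 15 points lower in JNKi (5.19%, against 3.66% of all genes), and no channel gene was more than 15 points higher (against 4.51%). Of these, Cacnb3 and Kcnmb2 had 1 low replicate in JNKi, as above, and Kcnab3 went from 444 and 467 to 444 and 210. At Cacna1h the DMSO values, 261 and 290, lay within the JNKi values of 306 and 180. The sources used here do not say whether a low replicate value belongs to the whole replicate peak or to part of it. Ranked by the higher replicate value, Cacnb3 went from 69.2 to 70.4, Kcnmb2 from 57.0 to 53.1, Kcnab3 from 92.5 to 85.8 and Cacna1h from 72.3 to 68.0, so the drops above rest on the lower replicate.

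H3K4me3 peaks within the gene body but more than 3 kb from any annotated TSS were found at 19 channel genes in DMSO (14.3%, interval 9.34 to 21.2), against 8.46% of all genes, and at 16 in JNKi (12%, interval 7.54 to 18.6), against 8.48%. Channel genes are longer than most, as given above. Scn8a had 4 such peaks in each treatment and Cacna1c 4 in DMSO and 5 in JNKi. The strongest of Scn8a (chr15:100982689-100984348 in DMSO), 46364 bp from its nearest TSS, had 118 and 104 over 1660 bp. Kcnip1, Kcnq1 and Kcnj12, all without a promoter peak, had 2, 1 and 1 in DMSO and 2, 1 and none in JNKi.

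The third comparison concerned cJun near these genes. In DMSO 45 of the 133 had a cJun peak within 50 kb of the gene body (33.8%, interval 26.3 to 42.2), against 28.4% of all genes. In JNKi 14 channel genes had one (10.5%, interval 6.37 to 16.9), against 12.2%. Both lists gave a peak at 10 genes (7.52%, against 10.2%), DMSO alone at 35 (26.3%, against 18.2%) and JNKi alone at 4 (3.01%, against 2.02%). Because the window includes the gene, longer genes catch more peaks. Within 50 kb of a TSS the counts were 32 in DMSO (24.1%, against 23.7%) and 9 in JNKi (6.77%, against 9.97%). By gene length the DMSO shares were 27.9% against 24.0% under 20 kb, 29.8% against 30.8% from 20 to 100 kb and 44.2% against 41.5% over 100 kb.

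The cJun counts were then split by the promoter mark. Among channel genes marked by H3K4me3 in DMSO, 29 of 82 had a cJun peak (35.4%, interval 25.9 to 46.2), against 38.2% of all marked genes. Among unmarked channel genes 16 of 51 did (31.4%, interval 20.3 to 45.0), against 13.2%. The unmarked channel genes were longer, with a median of 18.2 kb against 9.35 kb for all unmarked genes, and the window includes the gene. Some of their peaks were shared by neighbours, such as Kcnip1 and Kcnmb1, or lay at another gene's promoter, as for Kcnj14. The part of length and of shared peaks in this share was not tested. By family all 4 Cacna2d genes had a DMSO cJun peak, as did 8 of 15 Kcnj, 4 of 8 Kcnh and 9 of 27 Kv genes. Of the sodium channel α genes 1 of 10 had one, and of all genes 28.4%. The Cacna2d genes are each over 100 kb long, and 41.5% of all genes of that length had such a peak. Kcnj1 shared its peaks with Kcnj5, and Kcnj2 its peak with Kcnj16, so the Kcnj count holds shared peaks. On the β cell list 15 of 40 genes had one in DMSO (37.5%, against 28.4% of all genes). In JNKi 10 had one (against 12.2%), with 8 in both (against 10.2%).

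The 69 distinct DMSO peaks near channel genes had a median rank percentile of 43.0 within the cJun list and a median width of 644 bp, against 643 bp for all peaks. By position, 10 lay within 3 kb of the channel gene's TSS, 22 in an intron, 1 in an exon, 19 upstream and 17 downstream, and 19 of the 69 lay within 3 kb of a TSS of another protein-coding gene. An H3K4me3 peak was present under 37 (53.6%, interval 42.0 to 64.9), against 53.5% of the list. A JNKi peak overlapped 9 of them (13.0%, interval 7.02 to 23.0), against 23.5%. Replicate agreement was low, as over the whole list, with IDR at most 0.05 for 5 of the 69 (7.25%, against 8.94%) and for 1 of the 16 JNKi peaks (6.25%, against 15.6%).

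**Figure D5:**
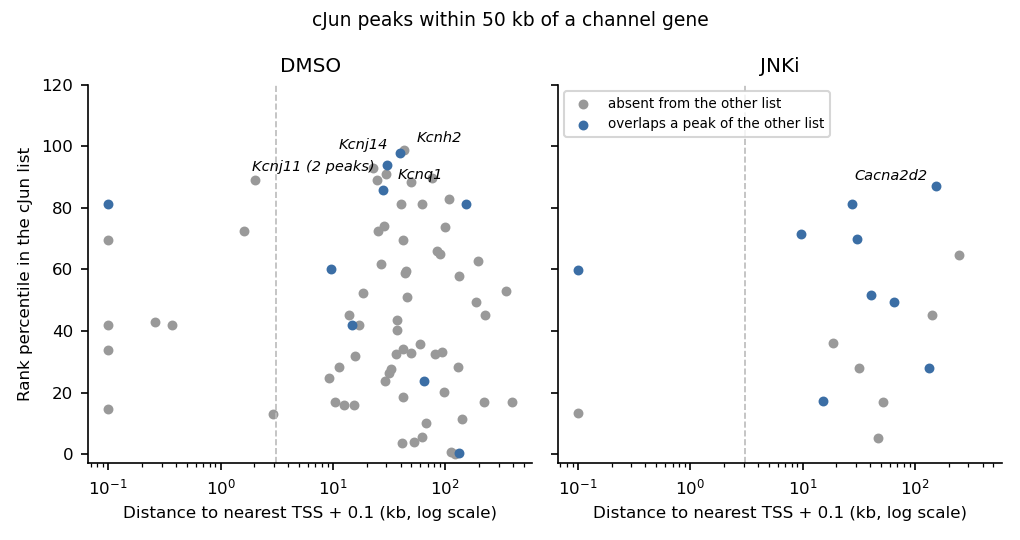
Distance of each cJun peak from the nearest TSS of its channel gene (horizontal axis, kb plus 0.1, log scale) and its rank percentile in the cJun list (vertical axis), in DMSO (74 pairs of gene and peak) and JNKi (16 pairs). The dashed line marks 3 kb, blue points overlap a peak of the other treatment, and the genes of peaks with IDR at most 0.05 are named.

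Kcnj11 had 4 cJun peaks in DMSO, as many as any channel gene, and 2 in JNKi. All were upstream of the gene and inside the body of Abcc8, its K-ATP partner, which lies next to it. In DMSO the peak at chr7:46130754-46132355 had values of 14.2 and 16.8 (percentile 93.8, IDR 0.0279) and that at chr7:46122699-46124276 had 13.2 and 16.9 (percentile 92.8, IDR 0.0369). The third, at chr7:46127915-46129169, had 12.4 and 10.3, and the fourth, at chr7:46145732-46146375, 6.03 and 11. Their distances from the Kcnj11 TSS were 30517, 22462, 27678 and 45495 bp. In JNKi the first was present with 15.8 and 7.95 and the third, whose JNKi window with an AP-1 site is shown above, with 9.73 and 9.71, while the other two had no counterpart. None lay on an H3K4me3 peak. Since all lie within Abcc8, they cannot be assigned to one or the other of these genes by position.

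The remaining DMSO peaks with IDR at most 0.05 lay near other genes. The Kcnh2 peak (26.2 and 23.9, percentile 98.6, 42812 bp from the TSS) lay at the Abcb8 and Atg9b promoters, and a second DMSO peak beside it had 5.05 and 14.8. The JNKi peak of Kcnh2 lay elsewhere, in Nos3, with 13.5 and 4.78. For Kcnj14 (Kir2.4) the DMSO peak at the Lmtk3 and Sult2b1 promoters had 23.2 and 21.1 over 1503 bp. A JNKi peak of 519 bp with 6.29 and 12.6 overlapped part of it. Their summits lay apart, at 45785085 in DMSO and 45783794 in JNKi, so these are not values of 1 matched site. The Kcnq1 (Kv7.1) peak, 29309 bp upstream within Trpm5, had 15.6 and 12.1 in DMSO and was absent in JNKi. In JNKi the 1 peak with IDR at most 0.05 was that assigned to Cacna2d2, at the Rassf1 promoter, with 11.5 and 13.8 against 9.12 and 12.8 for the matching DMSO peak.

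At their own promoters 10 channel genes had a cJun peak in DMSO (7.52%, interval 4.14 to 13.3), against 7.90% of all genes, and 2 in JNKi (interval 0.413 to 5.32), against 2.91%. Kcnd1 (Kv4.1) was in both sets, with 11.3 and 9.11 in DMSO (chrX:7821551-7822342) and 9.32 and 6.97 in JNKi (chrX:7821935-7822588), and the replicate ranges overlapped. Kcnj1 (ROMK, a kidney inward rectifier) had the best ranked of them, 15.3 and 11.4 at percentile 89.0, at a promoter without H3K4me3. Kcnh6 had 7.85 and 9.23, Kcnj2 (Kir2.1) 7.61 and 7.85, and Kcnmb4 5.55 and 5.78. Kcnh5, Cacng7, Cacna1c, Kcnma1 and Kcnf1 were at or below percentile 42.0. The other JNKi promoter peak was at Cacnb2, with 3.99 and 7.89, a gene whose DMSO cJun peak lay in an intron 52844 bp from a TSS.

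Besides Kcnj11, Kcnj14, Kcnd1, Kcnh2, Cacna2d2 and Cacnb2, the genes with a cJun peak in both lists were Kcnj6, Kcnn1, Cacnb4 and Scn8a. At Kcnj6 the intronic DMSO peak shown above with an AP-1 site had 5.90 and 4.48 (IDR 0.729). A JNKi peak that overlapped it only in part had 9.16 and 6.16 (IDR 0.357). These JNKi values were the higher, without overlap of the replicates. The JNKi peak held no AP-1 site within 100 bp of its own summit, so these are not values of 1 matched site. Kcnn1 had 14.3 and 6.67 in DMSO and 12 and 8.13 in JNKi, by the Ccdc124 promoter. Cacnb4 had 3.04 and 13.4 against 4.78 and 8.38 at the Arl5a promoter. Scn8a had 6.24 and 5.52 against 6.97 and 4.29 in an intron, in peaks that overlapped only in part, with summits more than 200 bp apart. At these last 3 genes the replicates of the treatments overlapped. Genes with a peak in JNKi alone were Cacna1a, Kcnip3, Scn3b and Kcna10, the highest of them Cacna1a with 7.45 and 8.05 near Ier2, and the others at or below percentile 36.1.

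Of the 45 genes with a DMSO cJun peak 27 had 1 peak, 11 had 2, 3 had 3 and 4 had 4. The same counts over all genes are not given here, and the window includes the gene. Those with 4 were Kcnj11, Kcnj6, Kcnma1 and Kcnip4, and those with 3 were Cacna1c, Kcnip1 and Kcnk16. Kcnj11 and Kcnk16 are 6.81 and 7.82 kb long, whereas the others are 249 to 1135 kb long. The peaks of Kcnma1 and Kcnip4, genes of BK channels and of a Kv4-interacting protein, reached at most percentile 73.8 and 72.5 and had no counterpart in JNKi. At Kcnip4 the intronic peak shown above had 8.63 and 6.85. At Kcnv2, whose window is also shown above, the DMSO values were 7.67 and 4.21, again with no JNKi peak. Kcnk16, whose promoter was marked in JNKi alone (percentile 4.01, IDR 0.282), had 3 cJun peaks in DMSO and none in JNKi. Their values were 8.15 and 12.6, 5.64 and 15.6 and 4.90 and 4.56, at distances of 28633, 13801 and 9154 bp. Their IDR was 0.279, 0.530 and 0.729, and the first lay in Nudt13. Over the whole list 23.5% of DMSO cJun peaks overlapped a JNKi peak, so absence in JNKi was usual. A link between these cJun peaks and the promoter mark was not tested.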

How the data were processed

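Narrow peaks in CUT&RUN data of Min6 cells were analysed in the 4 IDR lists deposited. Per the labels and the study's methods, the authors trimmed reads (Trimmomatic), checked them (FastQC), aligned them to GRCm38 (Bowtie2 2.4.2), filtered them (SAMtools 1.16), called peaks per replicate against IgG (MACS2 2.2.7.1) and merged the replicates with IDR. The deposited −log10 p-values and −log10 IDR, the deposited score (scaled IDR) and positions were used as given, and the columns for signal and q-value were placeholders. Peaks were therefore ranked by −log10 p. The lists end near a −log10 p of 3.01, though the methods state default peak calling.

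Genes, windows, widths and ranks were computed in Python 3.11.15 with pandas 2.3.3 and SciPy 1.17.1 on GENCODE vM21 basic transcripts, and sequence came from the RefSeq GRCm38.p6 genome. Overlap meant 1 bp or more. A planted set of peaks was recovered as placed. No test was made. The members, gene lists and alternatives were chosen with earlier results of these data known. Named genes were those on the β cell list, those whose mark differed between lists, the 10 widest and 5 narrowest peaks, width changes of at least 1.5-fold, and genes whose cJun peaks had IDR at most 0.05, lay at the promoter, carried an AP-1 site, occurred in both lists or were among the most numerous. Genes listed as unmarked neighbours, CpG-rich, intragenically marked, uneven between replicates, shifted in rank or with cJun in JNKi alone were named after their values were seen. A few genes that these rules name are not reported here. IgG libraries and reads were not analysed here.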

Additional observations from a re-analysis of the deposited data

How the results depend on the processing

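Each treatment gave 1 merged list, and leaving out a replicate was not possible because a list holds peaks of both. No paired analysis was possible because the replicate columns of the merged lists carry no numbers. Of 69 alternative values, 47 stayed within 1.5 times the count reported or within the interval of the median reported, and 22 did not. The count of marked channel genes was 62 to 84 for DMSO and 61 to 80 for JNKi. With IDR at most 0.05, 5 genes were marked in JNKi alone, 0 changed in width by 1.5-fold, and the median rank percentile was 32.8 in DMSO and 30.8 in JNKi (63.9 and 64.6 over all marked genes). With IDR at most 0.01, 4 were marked in JNKi alone (3.01%, against 3.29% of all genes).

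Genes with a cJun peak depended most on IDR and the window. With IDR at most 0.05 there were 4 in DMSO, 1 in JNKi and 0 in both (3.01, 0.752 and 0% of channel genes, against 4.22, 2.74 and 1.73% of all genes), and with IDR at most 0.01 there were 2, 0 and 0 (against 2.29, 1.28 and 0.938% of all genes). Within 10 kb of the gene body there were 26, 7 and 6 (19.5, 5.26 and 4.51%, against 15.2, 6.05 and 4.65%), and within 100 kb 17 in both lists (12.8%, against 16.8%). Within 50 kb of a TSS there were 9 in JNKi and 6 in both (6.77 and 4.51%, against 9.97 and 8.12%). Leaving out peaks within 3 kb of the TSS of another gene, an alternative chosen after seeing the data, gave 8 in JNKi and 5 in both (6.02 and 3.76%, against 7.41 and 5.97%). AP-1 sites were in 17 of the DMSO peaks over the whole peak and in 1 within 50 bp of the summit. With summits at most 200 bp apart, 5 DMSO peaks near channel genes had a counterpart in JNKi. That rule was not applied to the whole list, so whether this count is low is not known. Ranking by the higher replicate was also chosen after seeing the data. The cJun counts thus rest mostly on peaks with weak replicate agreement, and the unknown depth limits any statement on an absent peak.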
